A study of Homo sapiens with 24 samples.

Results

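A set of 9 genes for transcription factors of the myeloid lineage was followed across all treatment groups: SPI1, CEBPA, CEBPB, CEBPD, CEBPE, IRF8, RUNX1, MYB and IKZF1. They were taken by name, as 9 of the 38048 rows of the deposited gene table. The libraries came from MV4-11, a human acute myeloid leukemia cell line that carries an MLL-AF4 fusion, and every library carried the genotype label PRMT5 +/+. Groups of 3 libraries each were treated with PRT220 and GSK-LSD1 together, MS023 and GSK-LSD1 together, GSK-LSD1, PRT220, MS023, MC4455, MC4491 or the solvent DMSO. PRT220 is an inhibitor of the arginine methyltransferase PRMT5 and was used at 3 nM, and GSK-LSD1 is an inhibitor of the histone demethylase LSD1 and was used at 10 nM, for 3 days, alone or together. MS023 is an inhibitor of type I arginine methyltransferases. The labels give no dose or time for MS023 with or without GSK-LSD1, MC4455 and MC4491, and MC4455 and MC4491 are known there by their code names only. All groups are 1 cell line, and the labels do not say whether replicates A, B and C were separate cultures, so p-values measure the spread between these libraries, which may be technical.

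Blood cell fate is set by transcription factors that act together on shared enhancers. PU.1, encoded by SPI1, and the C/EBP factors open monocyte and granulocyte genes, IRF8 favours monocytes and dendritic cells over granulocytes, and RUNX1 and MYB are needed for stem and progenitor cells and for the growth of many leukemias. Ikaros, encoded by IKZF1, is best known in lymphoid development and also acts in myeloid progenitors, and LSD1 serves the repressors GFI1 and GFI1B, which hold down genes that PU.1 and C/EBP factors activate.

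The promoters of 4 genes are shown because 3 of them, CEBPA, CEBPB and MYB, fell in the groups with GSK-LSD1, and RUNX1 fell in the groups with PRT220. Each runs from 250 bases before to 50 bases after a RefSeq start site on the GRCh38.p14 assembly, written 5′ to 3′ on the gene's strand: CEBPA at chr19:33302485-33302784 on the minus strand, CEBPB at chr20:50190580-50190879 on the plus strand, MYB at chr6:135181058-135181357 on the plus strand and RUNX1, for its proximal promoter, at chr21:34888650-34888949 on the minus strand. Capitals mark matches, on either strand, to the letters GAGGAA for PU.1, TTGCNNA for C/EBP factors, AAATCAC for GFI1, TAACNG for MYB, TGTGGT for RUNX factors and GAAANNG for interferon regulatory factors.
CEBPA: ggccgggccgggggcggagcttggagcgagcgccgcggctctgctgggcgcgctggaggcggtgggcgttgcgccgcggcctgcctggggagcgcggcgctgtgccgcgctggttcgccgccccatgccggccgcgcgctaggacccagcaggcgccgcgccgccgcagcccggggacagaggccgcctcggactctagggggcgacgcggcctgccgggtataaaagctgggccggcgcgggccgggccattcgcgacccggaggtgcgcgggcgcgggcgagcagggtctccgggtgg
CEBPB: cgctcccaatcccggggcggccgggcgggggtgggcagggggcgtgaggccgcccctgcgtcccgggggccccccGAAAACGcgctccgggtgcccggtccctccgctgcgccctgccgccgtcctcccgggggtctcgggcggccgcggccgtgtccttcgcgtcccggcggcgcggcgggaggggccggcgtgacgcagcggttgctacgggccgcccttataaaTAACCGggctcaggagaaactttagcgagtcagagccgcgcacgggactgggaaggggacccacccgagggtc
MYB: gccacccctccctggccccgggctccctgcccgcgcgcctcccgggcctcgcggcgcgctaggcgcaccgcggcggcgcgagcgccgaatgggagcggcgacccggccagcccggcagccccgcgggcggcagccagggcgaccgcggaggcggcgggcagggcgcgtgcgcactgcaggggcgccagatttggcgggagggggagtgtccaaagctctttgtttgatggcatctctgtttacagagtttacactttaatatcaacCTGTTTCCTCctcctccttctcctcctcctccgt
RUNX1: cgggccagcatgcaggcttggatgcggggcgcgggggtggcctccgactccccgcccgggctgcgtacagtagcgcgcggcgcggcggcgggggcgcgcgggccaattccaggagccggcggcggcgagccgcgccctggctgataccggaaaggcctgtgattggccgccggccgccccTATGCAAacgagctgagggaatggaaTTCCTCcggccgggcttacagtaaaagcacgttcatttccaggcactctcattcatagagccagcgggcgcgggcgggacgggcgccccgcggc
The CEBPA window, of which 80.7% of bases were G or C, held no match to any of the 6 motifs. The CEBPB window held 1 match for interferon regulatory factors and 1 for MYB. Another RefSeq window of CEBPB, at chr20:50190333-50190632 and not printed, held no match to any of the 6 motifs. In the MYB window a PU.1 match and an interferon regulatory factor match, both on the opposite strand, overlapped each other. The RUNX1 window held 1 C/EBP and 1 PU.1 match, both on the opposite strand. Of 34943 RefSeq promoter windows of the same length, 27.9% held the PU.1 letters, 33.2% the C/EBP letters, 3.1% the GFI1 letters, 20.8% the MYB letters, 13.1% the RUNX letters and 52.1% the interferon regulatory factor letters. Promoter entries were matched for 7 of the 9 genes, CEBPA, CEBPB, CEBPE, IRF8, RUNX1, MYB and IKZF1. CEBPD was left out of the search, and no entry was matched for SPI1.

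Library totals ran from 32495446 to 61090593 estimated counts, and all 9 genes passed the filter on low counts among 16640 genes tested. In 8 libraries RRP9, a component of the U3 small nucleolar ribonucleoprotein, had 0.677 to 1.73 CPM (read counts scaled to library size), against at least 29.1 CPM in the other 16. These 8 were all 3 PRT220 libraries, PRT220 plus GSK-LSD1 library C, MS023 libraries A and C, MS023 plus GSK-LSD1 library B and DMSO library C. In a fit with a term for them, 4.18% of genes differed between low-RRP9 and other libraries, but none of the 9 genes did (log2 difference -0.04 to 0.20, smallest edgeR adjusted p = 0.0631). Among markers, monocyte and macrophage genes summed to 2908 to 3165 CPM with PRT220 plus GSK-LSD1, 2908 to 3271 CPM with MS023 plus GSK-LSD1 and 3463 to 3633 CPM with GSK-LSD1, against 1295 to 1300 CPM with DMSO. LYZ, with up to 2557 CPM, and VCAN, with up to 645 CPM, made up most of these sums, and 3 of the 18 tested markers, CD36, FCGR1A and CES1, were called lower in each of the 3 groups. Granulocyte markers summed to 183 to 216 CPM, 219 to 246 CPM and 224 to 241 CPM in those groups, against 447 to 493 CPM with DMSO. These markers did not all fall. Of 9 tested, 6 were called lower in each of these groups. Called higher were 3 with PRT220 plus GSK-LSD1, 2 with MS023 plus GSK-LSD1 and 2 with GSK-LSD1. Sums of the 14 erythroid and megakaryocyte, the 14 lymphocyte and the 11 epithelial and fibroblast markers were at most 53.2 CPM in every library, and HBG1, PF4, PPBP, CD2, MS4A1 and KRT19 were at 0 throughout. In these bulk samples, fewer cells of a type and less RNA per cell cannot be told apart.

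On TPM, a scale corrected for transcript length and computed here, MYB stood highest with DMSO at 523 ± 31.3 TPM, followed by IRF8 at 392 ± 15.0, RUNX1 at 322 ± 10.9, IKZF1 at 305 ± 17.5, CEBPA at 239 ± 10.6 and SPI1 at 129 ± 7.60 TPM (SD, n = 3). Whether the deposited estimated counts were already corrected for length is not given in the sources used here, and such a correction would alter this order. CEBPD at 48.5 ± 6.77 and CEBPB at 44.0 ± 6.63 TPM were far lower, and CEBPE, a factor of late granulocyte maturation, had 2.79 ± 0.75 TPM. Across the 8 groups the mean CPM of the highest group exceeded that of the lowest 1.75 times for CEBPB, 1.66 times for CEBPA, 1.48 times for CEBPE and 1.43 times for CEBPD. The same ratio was 1.23 for IRF8, 1.22 for MYB, 1.17 for RUNX1, 1.11 for SPI1 and 1.10 for IKZF1. CEBPA and CEBPB thus had the widest ranges and SPI1 and IKZF1 the narrowest. The ratio of CEBPE is no larger than its spread within DMSO alone, where libraries ran from 1.55 to 2.60 CPM. CEBPD and CEBPB also spread within DMSO, from 40.5 to 55.5 CPM and from 31.9 to 44.7 CPM.

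**Figure D1:**
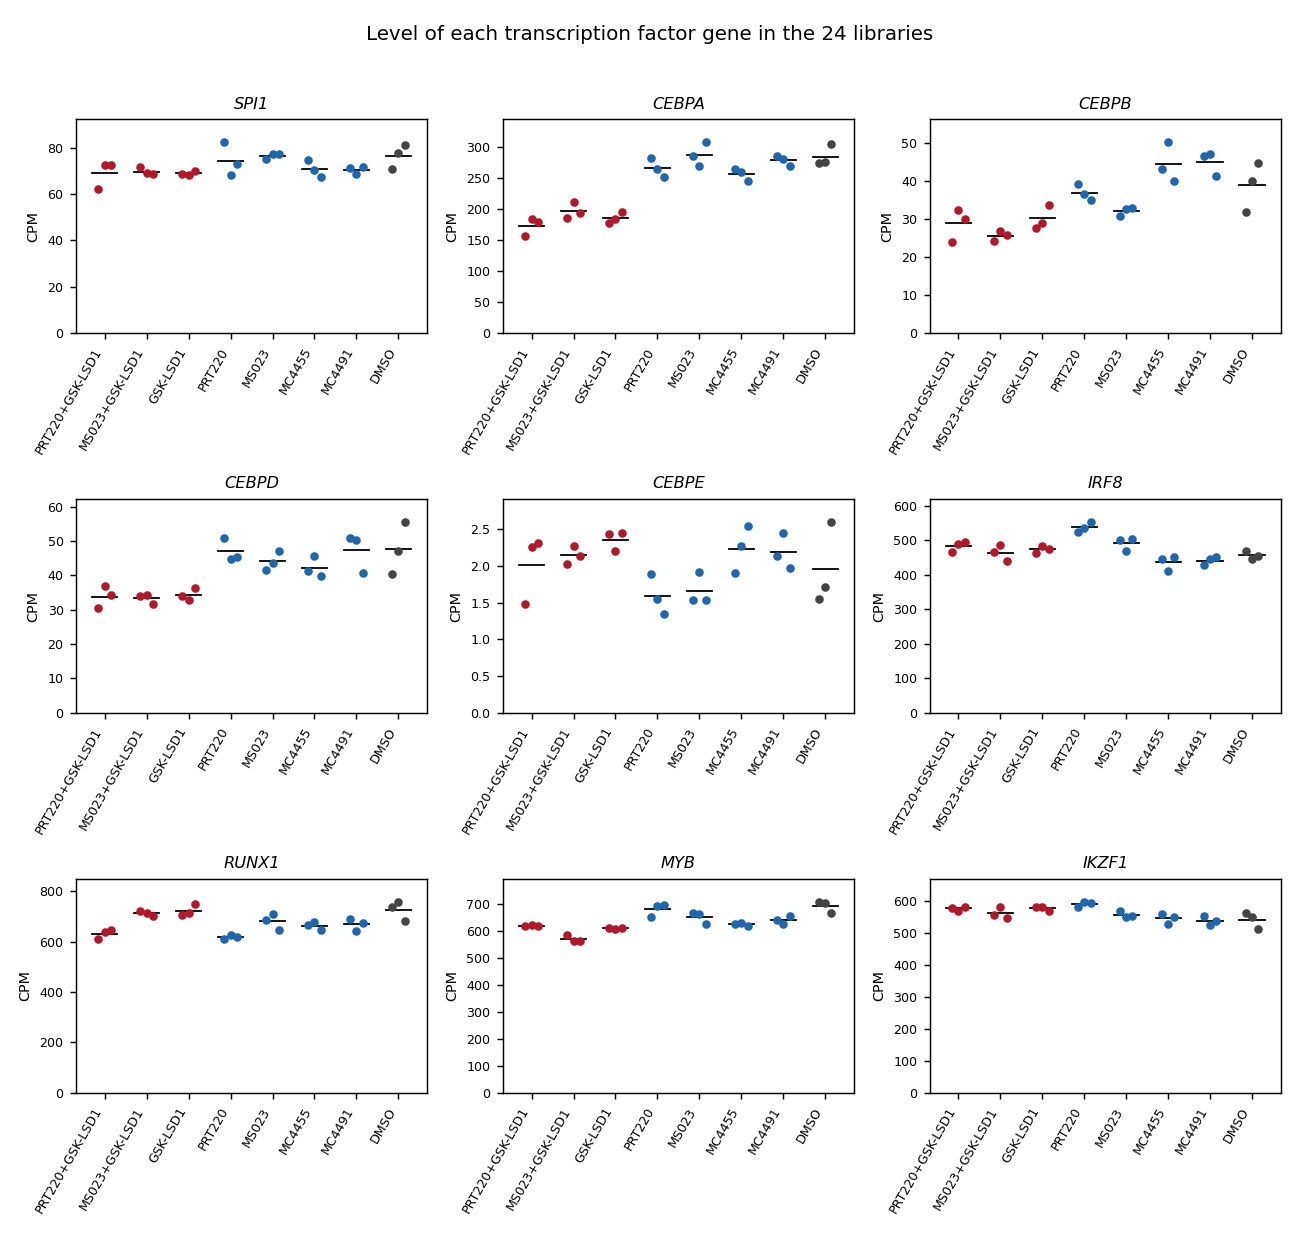
Level of each gene in CPM (vertical axes from 0) in the 24 libraries, 3 points per group with the group mean as a line; red marks groups that received GSK-LSD1, blue the other compounds and grey DMSO. CEBPA lies between 157 and 211 CPM in the red groups and at 245 CPM or above in all others.

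CEBPA, CEBPB and CEBPD fell in every group that received GSK-LSD1, and none of them was called over DMSO in the other 4 groups. CEBPA encodes the C/EBP factor that commits progenitors to the granulocyte and monocyte fate (chr19:33299934-33302564, minus strand, GRCh38). It had 157, 184 and 178 CPM with PRT220 plus GSK-LSD1, 185, 211 and 193 CPM with MS023 plus GSK-LSD1 and 176, 184 and 195 CPM with GSK-LSD1, against 273, 275 and 304 CPM with DMSO. No library of these groups reached the DMSO range. The log2 fold changes over DMSO were -0.72 ± 0.07, -0.53 ± 0.07 and -0.62 ± 0.07 (SE; edgeR adjusted p = 1.89e-08, 1.34e-06 and 2.5e-07). With PRT220 alone CEBPA had 282, 264 and 252 CPM, which overlapped DMSO, and its log2 fold change was -0.10 (edgeR adjusted p = 0.33), but -0.18 (0.0301) with a term for low-RRP9 libraries. All tests against DMSO share the same 3 DMSO libraries and are therefore not independent of each other.

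CEBPD, whose factor is induced by inflammatory signals in myeloid cells, had 30.5, 36.8 and 34.2 CPM with PRT220 plus GSK-LSD1, 34.0, 34.3 and 31.7 CPM with MS023 plus GSK-LSD1 and 34.0, 32.8 and 36.5 CPM with GSK-LSD1, against 40.5, 47.1 and 55.5 CPM with DMSO. The groups did not overlap with DMSO, although the DMSO libraries spread widely, with library C highest and A lowest. CEBPD fell by 0.50 ± 0.10, 0.52 ± 0.10 and 0.47 ± 0.10 on the log2 scale (edgeR adjusted p = 0.000373, 0.000269 and 0.000923). The falls of CEBPA and CEBPD over DMSO in these 3 groups passed the test in each of the alternatives run.

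CEBPB, the C/EBP factor of emergency granulocyte production and macrophage activation (chr20:50190734-50192689, plus strand), had 24.02, 32.4 and 30.0 CPM with PRT220 plus GSK-LSD1, 24.2, 26.9 and 25.8 CPM with MS023 plus GSK-LSD1 and 27.7, 29.04 and 33.8 CPM with GSK-LSD1, against 31.9, 40.0 and 44.7 CPM with DMSO. DMSO library A lay within the range of the PRT220 plus GSK-LSD1 and GSK-LSD1 libraries and above all MS023 plus GSK-LSD1 libraries. CEBPB fell by 0.43 ± 0.12, 0.60 ± 0.12 and 0.37 ± 0.11 on the log2 scale (edgeR adjusted p = 0.00372, 0.000218 and 0.0166). The GSK-LSD1 result was less stable: without GSK-LSD1 library A the log2 fold change was -0.34 (adjusted p = 0.0598) and without DMSO library C it was -0.28 (adjusted p = 0.084). Among the 16 libraries without low RRP9, CEBPB had a log2 fold change of -0.26 with GSK-LSD1 (adjusted p = 0.174) and -0.36 with PRT220 plus GSK-LSD1 (adjusted p = 0.0711).

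CEBPE (chr14:23117304-23119616, minus strand) did not follow the other C/EBP genes. It had 1.48, 2.25 and 2.31 CPM with PRT220 plus GSK-LSD1, 2.03, 2.27 and 2.13 CPM with MS023 plus GSK-LSD1 and 2.43, 2.20 and 2.44 CPM with GSK-LSD1, against 1.55, 1.71 and 2.60 CPM with DMSO. These ranges overlapped, no comparison called CEBPE, and its 57 to 115 counts per DMSO library gave wide 95% intervals, from -0.14 to 0.68 on the log2 scale for GSK-LSD1. Reads of CEBPA and CEBPB cannot be told apart from those of the antisense genes that overlap them, since the libraries were unstranded; those antisense genes are not analysed here.

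**Figure D2:**
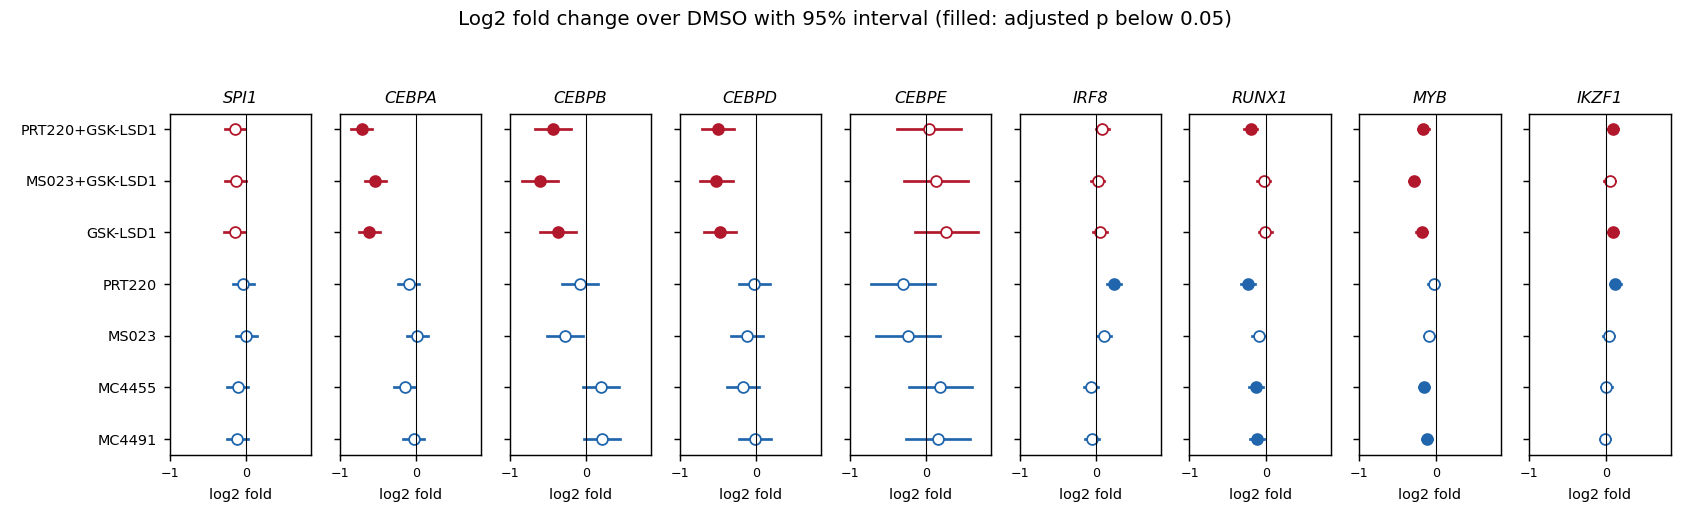
Log2 fold change over DMSO of each gene (panels, horizontal axis) in the 7 treated groups (rows), with 95% intervals; filled points had an edgeR adjusted p below 0.05, and red marks groups with GSK-LSD1. CEBPA, CEBPB and CEBPD lie left of 0 in the 3 red rows, where CEBPA reaches -0.72.

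In terms of counts, PRT220 plus GSK-LSD1 called 6 of the 9 genes over DMSO, 1 higher and 5 lower, where 46.5% of all tested genes were called, 24.4% higher and 22.1% lower. MS023 plus GSK-LSD1 called 4, all lower, where 48.4% of all genes were called and 23.3% were lower. GSK-LSD1 called 5, 1 higher and 4 lower, beside 32.6% of all genes, 17.6% higher and 15% lower. PRT220 called 3, 2 higher and 1 lower, beside 24.9% of all genes, 13.8% higher and 11.1% lower. With so many genes called, these counts do not set the 9 genes apart. The enzymes and the repressor behind the treatments were also followed. KDM1A, which encodes LSD1, averaged 104 CPM with PRT220 plus GSK-LSD1, 109 CPM with MS023 plus GSK-LSD1 and 110 CPM with GSK-LSD1, against 123 CPM with DMSO. KDM1A fell by 0.24, 0.17 and 0.16 on the log2 scale in these 3 groups with GSK-LSD1. PRMT5 fell by 0.22, 0.25 and 0.22, and GFI1 rose by 0.28, 0.31 and 0.36 in the same order (edgeR adjusted p = 0.0047, 0.0013 and 0.00572 for PRMT5).

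CEBPA, CEBPB and CEBPD also fell when GSK-LSD1 was added to a methyltransferase inhibitor, and no difference in the size of that response passed the test. CEBPE was not called in either addition (log2 fold change 0.34 over PRT220 and 0.37 over MS023). When GSK-LSD1 was added to PRT220, CEBPA fell by 0.62 ± 0.07 on the log2 scale, with 157, 184 and 178 CPM for the pair against 282, 264 and 252 CPM for PRT220. Added to MS023, it lowered CEBPA by 0.55 ± 0.07 (edgeR adjusted p = 2.47e-07 and 1.12e-06). The interaction terms, which test whether the response to GSK-LSD1 differed with the second drug, were -0.00 for PRT220 (95% interval -0.20 to 0.19) and 0.07 for MS023 (-0.13 to 0.26), and neither passed the test. For CEBPD these terms were -0.00 (-0.30 to 0.29) and 0.07 (-0.23 to 0.37), and for CEBPB 0.01 (-0.33 to 0.35) and 0.04 (-0.30 to 0.38). For CEBPB, intervals of this width leave room for a difference about as large as its fall with GSK-LSD1 alone. For CEBPD they leave room for a difference smaller than its falls, and none was detectable for either gene.

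CEBPD fell by 0.48 ± 0.10 when GSK-LSD1 was added to PRT220 and by 0.40 ± 0.10 when it was added to MS023 (edgeR adjusted p = 0.000841 and 0.00309). CEBPB fell by 0.36 ± 0.12 and 0.33 ± 0.12 in the same comparisons (adjusted p = 0.0177 and 0.0288), but both calls were lost in several alternatives. Over PRT220, the log2 fold change of CEBPB was -0.24 without PRT220 plus GSK-LSD1 library A (adjusted p = 0.124) and -0.32 without PRT220 library A (0.068), and -0.28 (0.0927) with the term for low RRP9. Among libraries without low RRP9, the addition to MS023 missed the threshold for CEBPD (-0.41, adjusted p = 0.0565). Over MS023 the value of CEBPB was -0.29 without MS023 plus GSK-LSD1 library A (adjusted p = 0.102), -0.33 without library C of that group (0.0649) and -0.31 without MS023 library C (0.0785). That value of CEBPB was -0.29 (0.0509) with the term for low RRP9, -0.39 (0.162) among libraries without low RRP9 and -0.27 (0.0753) among those with it. In all, GSK-LSD1 added to PRT220 called 5 of the 9 genes, all lower, beside 38.2% of all genes, of which 18.8% were lower. Added to MS023 it called 4, all lower, beside 40% of all genes, 20% lower.

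**Figure D3:**
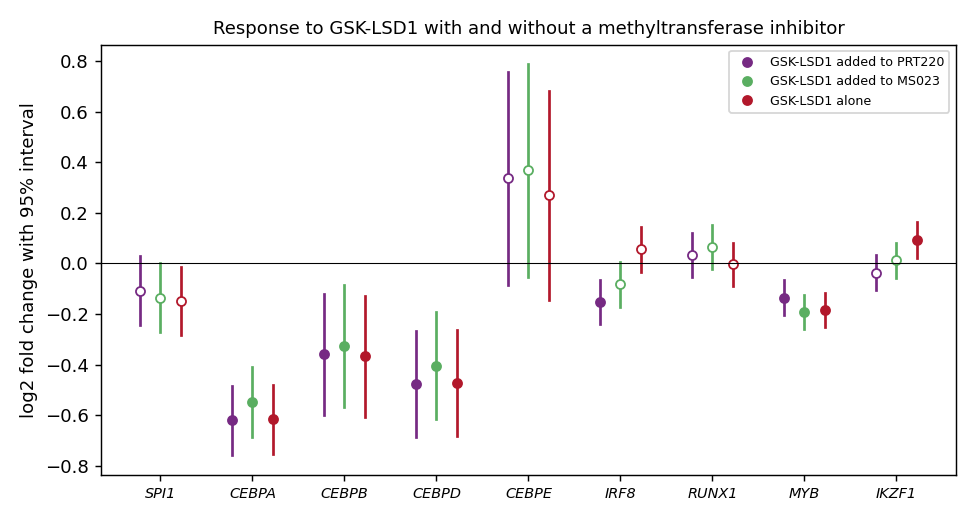
Log2 fold change with 95% interval (vertical axis) of each gene when GSK-LSD1 was added to PRT220 (purple), to MS023 (green) or given alone (red, over DMSO); filled points had an edgeR adjusted p below 0.05. The 3 points of CEBPA lie between -0.62 and -0.55, and IRF8 is filled only for the addition to PRT220, at -0.15.

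MYB, the progenitor factor whose product keeps leukemia cells in an immature state (chr6:135181315-135219173, plus strand), also fell in the groups with GSK-LSD1, by smaller steps than CEBPA, CEBPB and CEBPD but with tight replicates. It had 616, 622 and 617 CPM with PRT220 plus GSK-LSD1, 584, 562 and 560 CPM with MS023 plus GSK-LSD1 and 610, 607 and 611 CPM with GSK-LSD1, against 706, 703 and 667 CPM with DMSO. All of these libraries lay below every DMSO library. MYB fell by 0.16 ± 0.03, 0.28 ± 0.03 and 0.18 ± 0.03 on the log2 scale (edgeR adjusted p = 0.000343, 5.06e-07 and 0.00015).

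MYB had 651, 691 and 696 CPM with PRT220, which overlapped DMSO (log2 fold change -0.03, 95% interval -0.10 to 0.04). It fell by 0.14 ± 0.03 when GSK-LSD1 was added to PRT220 and by 0.19 ± 0.03 when it was added to MS023 (edgeR adjusted p = 0.00258 and 7.96e-05). Between the 2 pairs of drugs, MYB was 0.12 ± 0.03 higher with PRT220 plus GSK-LSD1 than with MS023 plus GSK-LSD1 (adjusted p = 0.0141). That difference missed the threshold without PRT220 plus GSK-LSD1 library B (0.12, adjusted p = 0.0518) and without MS023 plus GSK-LSD1 library B (0.10, 0.0648) or C (0.11, 0.0605). In all, this MYB call was lost in 6 of 14 alternatives. These included libraries with and without low RRP9 taken apart, and the compared groups alone. Doses were not given for MS023. For CEBPA the log2 fold change of PRT220 plus GSK-LSD1 over MS023 plus GSK-LSD1 was -0.18, which missed the threshold (adjusted p = 0.0654) and passed it without MS023 plus GSK-LSD1 library A (-0.23, 0.0478). That comparison of the pairs called 2 of the 9 genes, MYB higher and RUNX1 lower, beside 16.9% of all genes, 10.3% higher and 6.65% lower. It called 3 of the 9 with the term for low RRP9, beside 3133 of 16640 genes, and 3 with DESeq2, beside 3013 of 15334. Among the low-RRP9 libraries alone, where PRT220 plus GSK-LSD1 and DMSO have 1 library each, MYB had log2 fold changes of -0.14 over DMSO (adjusted p = 0.224) and -0.16 over PRT220 (0.13). Reads of MYB and of MYB-AS1, which overlaps it on the other strand, cannot be told apart.

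RUNX1 fell in both groups that received PRT220. Its product is the DNA-binding partner of core binding factor in stem and progenitor cells (chr21:34787801-36004667, minus strand, as annotated). It had 609, 639 and 648 CPM with PRT220 plus GSK-LSD1, 707, 714 and 750 CPM with GSK-LSD1 and 610, 625 and 620 CPM with PRT220, against 738, 758 and 682 CPM with DMSO. Both groups with PRT220 lay below every DMSO and every GSK-LSD1 library, whereas the GSK-LSD1 libraries lay within the DMSO range. RUNX1 fell by 0.23 ± 0.04 on the log2 scale with PRT220 (edgeR adjusted p = 0.000293) and by 0.20 ± 0.04 with PRT220 plus GSK-LSD1 (0.000485).

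Compared with GSK-LSD1 alone, PRT220 plus GSK-LSD1 lowered RUNX1 by 0.20 ± 0.04 (edgeR adjusted p = 0.0028), and RUNX1 was the 1 gene of the 9 called there, beside 15.3% of all genes, 8.34% lower. With MS023 plus GSK-LSD1 it had 723, 715 and 701 CPM, and the pair with PRT220 was lower than that by 0.17 ± 0.04 (adjusted p = 0.00674). Since all PRT220 libraries had low RRP9, the fit was repeated with a term for low RRP9, which gave -0.20 for PRT220 over DMSO (adjusted p = 0.00241). Among the low-RRP9 libraries alone, with only 1 DMSO library, the value was -0.15 (adjusted p = 0.108). For PRT220 plus GSK-LSD1 over DMSO, RUNX1 had -0.10 (adjusted p = 0.305) among low-RRP9 libraries and -0.26 (0.000444) among the 16 others.

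IRF8, which drives monocyte and dendritic cell fate (chr16:85898803-85922609, plus strand), rose with PRT220 alone. It had 526, 536 and 553 CPM with PRT220, against 468, 447 and 455 CPM with DMSO, and the groups did not overlap. The log2 fold change was 0.24 ± 0.04 (edgeR adjusted p = 0.000286), and it was 0.20 (0.00244) with the term for low RRP9 and 0.23 (0.0254) among low-RRP9 libraries. With PRT220 plus GSK-LSD1 IRF8 had 465, 491 and 496 CPM, which overlapped DMSO (log2 fold change 0.08, 95% interval -0.00 to 0.17).

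Added to PRT220, GSK-LSD1 lowered IRF8 by 0.15 ± 0.04 on the log2 scale (edgeR adjusted p = 0.00748), although this was -0.11 (0.0582) with the term for low RRP9. The interaction term of IRF8 was -0.21 ± 0.06, with an unadjusted p = 0.00239 and an edgeR adjusted p = 0.155 over all genes, so a difference in its response did not pass the test. No gene of the 9 passed it for PRT220, where 0.541% of all genes did, or for MS023, where 0% did, and DESeq2 called none of the 9 in either. Unadjusted p-values below 0.05 were held by 2 of the 9 for PRT220, IRF8 and IKZF1, beside 10.1% of all genes, and by 1 for MS023, IRF8, beside 8.15%. IRF8 had 466, 487 and 440 CPM with MS023 plus GSK-LSD1 and 501, 471 and 504 CPM with MS023. The log2 fold change between these was -0.08 (adjusted p = 0.129), and it passed the test only without library B of MS023 (-0.14, 0.0154) or of MS023 plus GSK-LSD1 (-0.11, 0.0457).

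IKZF1 (chr7:50304068-50405101, plus strand) rose by small steps in 3 groups. It had 579, 569 and 582 CPM with PRT220 plus GSK-LSD1, 582, 583 and 569 CPM with GSK-LSD1 and 582, 597 and 595 CPM with PRT220, against 562, 549 and 514 CPM with DMSO. DMSO library C was the lowest of all 24 libraries. IKZF1 rose by 0.13 ± 0.03 with PRT220, 0.09 ± 0.03 with GSK-LSD1 and 0.09 ± 0.03 with both (edgeR adjusted p = 0.00826, 0.0382 and 0.0335). Without DMSO library C the values were 0.09 (adjusted p = 0.07), 0.04 (0.428) and 0.05 (0.292). The GSK-LSD1 call for IKZF1 was also lost without GSK-LSD1 library A (0.06, 0.227) or B (0.07, 0.209) or DMSO library B (0.08, 0.118), and that of the pair without its library A (0.09, 0.0809) or C (0.08, 0.0925) or DMSO library B (0.09, 0.0685). In all, the IKZF1 calls were lost in 9 of 13 alternatives for GSK-LSD1, 10 of 14 for the pair and 2 of 13 for PRT220. Among these, the GSK-LSD1 and pair values were 0.07 and 0.07 with DESeq2 (adjusted p = 0.108 and 0.0837) and 0.06 and 0.05 among libraries without low RRP9 (0.249 and 0.37), and the PRT220 value was 0.12 (0.0974) with the compared groups alone.

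SPI1, the gene of PU.1 (chr11:47354860-47378576, minus strand), was not called in any of the 15 comparisons. It had 62.0, 72.6 and 72.6 CPM with PRT220 plus GSK-LSD1, 71.5, 69.0 and 68.5 CPM with MS023 plus GSK-LSD1, 68.5, 68.4 and 70.1 CPM with GSK-LSD1 and 82.3, 68.0 and 73.0 CPM with PRT220, against 70.6, 77.5 and 81.3 CPM with DMSO. The GSK-LSD1 libraries lay just below all DMSO libraries, and the other groups overlapped them. The log2 fold changes of the 3 groups with GSK-LSD1 over DMSO were -0.15, -0.14 and -0.15, with 95% intervals from -0.28 to -0.01 for the pair with PRT220, from -0.27 to 0.00 for the pair with MS023 and from -0.29 to -0.01 for GSK-LSD1 (edgeR adjusted p = 0.0706, 0.0923 and 0.0867).

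SPI1 stood close to the threshold. Without DMSO library A, the 3 log2 fold changes of SPI1 became -0.20 (edgeR adjusted p = 0.0231), -0.19 (0.0321) and -0.20 (0.0313), all past the threshold. That of the pair with PRT220 was also past it without its library B (-0.19, 0.0488) or C (-0.19, 0.0471), and with DESeq2 (-0.17, 0.0264). With DESeq2 the GSK-LSD1 value for SPI1 was -0.18 (0.0277).

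MS023 alone called none of the 9 genes by edgeR's quasi-likelihood test, beside 2.25% of all genes. An unadjusted p below 0.05 was held by 4 of them, CEBPB, IRF8, RUNX1 and MYB, beside 15.1% of all genes, and DESeq2 called 1, MYB (log2 fold change -0.10, adjusted p = 0.0414). MYB had 664, 661 and 623 CPM with MS023, all below the DMSO libraries. CEBPA had 285, 268 and 307 CPM with MS023, which overlapped DMSO (log2 fold change 0.01, 95% interval -0.12 to 0.15). Added to GSK-LSD1, MS023 called none of the 9 genes by edgeR, beside 10.9% of all genes. MYB alone had an unadjusted p below 0.05, beside 26.5% of all genes, and DESeq2 called 1, MYB (-0.09, adjusted p = 0.0265).

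MC4455 and MC4491 each called 2 of the 9 genes, RUNX1 and MYB, both lower, beside 37.6% of all genes (19.2% lower) for MC4455 and 30.7% (15.2% lower) for MC4491. MYB had 625, 630 and 616 CPM with MC4455 and 640, 625 and 654 CPM with MC4491, against 706, 703 and 667 CPM with DMSO, with no overlap. It fell by 0.15 ± 0.03 with MC4455 and by 0.11 ± 0.03 with MC4491 (edgeR adjusted p = 0.00143 and 0.0128). RUNX1 had 667, 677 and 648 CPM with MC4455 and 692, 642 and 676 CPM with MC4491, and of these MC4491 library A lay above the lowest DMSO library, at 682 CPM. RUNX1 fell by 0.13 ± 0.04 and 0.12 ± 0.04 (adjusted p = 0.0198 and 0.0402).

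These steps were small and rested on few libraries. The RUNX1 call of MC4455 was lost without MC4455 library C (-0.11, edgeR adjusted p = 0.0797) or DMSO library A (-0.12, 0.0634) or B (-0.11, 0.0548). That of MC4491 was lost without MC4491 library B (-0.09, 0.173) or C (-0.12, 0.0583) or DMSO library A (-0.10, 0.117) or B (-0.09, 0.094). The MYB call of MC4491 was lost without MC4491 library B (-0.10, 0.0585) or DMSO library A (-0.10, 0.0561), while that of MC4455 held without any single library.

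None of the C/EBP genes was called with either compound. CEBPA had 264, 259 and 245 CPM with MC4455 (log2 fold change -0.15, 95% interval -0.29 to -0.01, edgeR adjusted p = 0.0784; -0.16, 0.048 with DESeq2) and 285, 280 and 268 CPM with MC4491 (-0.03, -0.17 to 0.11). CEBPA was higher with MC4455, its next group in order of level, than with MS023 plus GSK-LSD1 by 0.38 on the log2 scale (adjusted p = 0.000143). CEBPB had 43.1, 50.1 and 39.9 CPM with MC4455 and 46.6, 47.0 and 41.2 CPM with MC4491, with log2 fold changes over DMSO of 0.19 and 0.21 that did not pass the test. CEBPD had a log2 fold change of -0.17 with MC4455, and -0.28 (adjusted p = 0.0394) without DMSO library A. Between MC4455 and MC4491 edgeR called none of the 9 genes and 0% of all genes, and DESeq2 none of the 9; 4.69% of all genes and none of the 9 had an unadjusted p below 0.05, and the 95% interval for CEBPA was -0.26 to 0.02. Doses of the compounds were not given, so a shared response cannot be set at a matched dose.

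In order of level over the 8 groups, neighbouring groups differed past the threshold at 1 step for CEBPA (MC4455 above MS023 plus GSK-LSD1), 1 step for CEBPD (MC4455 above GSK-LSD1, 0.30 on the log2 scale, edgeR adjusted p = 0.0277) and 1 step for IRF8 (PRT220 above MS023, 0.13, 0.0282). No other pair of neighbours differed past the threshold. For CEBPA and CEBPD that step separated the 3 groups with GSK-LSD1 from the 5 without it.

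The deposited transcript table allowed the share of each transcript in its gene to be tested for SPI1, IRF8, RUNX1, MYB and IKZF1. The 4 C/EBP genes have 1 transcript each there. RUNX1 changed its transcript makeup with GSK-LSD1, where its total level was not called. RUNX1-202 (7274 bases) and the short RUNX1-203 (2720 bases) start at the proximal promoter, and RUNX1-207 and RUNX1-201 at the distal one. By general knowledge of the gene models, and not from the deposited files, RUNX1-202 is taken as the full-length RUNX1b form, RUNX1-203 as RUNX1a, which lacks the transactivation domain, and RUNX1-207 as a RUNX1c form. The annotated start of RUNX1-202 and RUNX1-203 is position 34888690 of chromosome 21, the site of the promoter printed above, and those of RUNX1-207 and RUNX1-201 are the distal positions 35049298 and 35049344.

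RUNX1-202 made up 81.4%, 81.2% and 82.1% of the RUNX1 estimated count with PRT220 plus GSK-LSD1 and 82.3%, 83.3% and 81.4% with GSK-LSD1, against 78.5%, 77.3% and 71.5% with DMSO. RUNX1-203 made up 12%, 12.7% and 12.8% with the pair and 11.8%, 11% and 13% with GSK-LSD1, against 13.8%, 14.8% and 20.9% with DMSO, where library C stood apart. Distal RUNX1-207 had 1.48%, 1.84% and 1.02% with the pair and 1.29%, 1.62% and 1.35% with GSK-LSD1, against 2.48%, 3.24% and 3.37% with DMSO. None of the 3 transcripts overlapped with DMSO in either group.

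In limma's test of transcript usage, the share of RUNX1-202 relative to the other transcripts of its gene rose by 0.54 on the log2 scale with GSK-LSD1 and by 0.47 with the pair (adjusted p = 2.1e-07 and 9.5e-06). RUNX1-203 fell by 0.48 and 0.41 (adjusted p = 0.00121 and 0.00585), and RUNX1-207 fell by 1.11 and 1.14 (3.17e-05 and 7.92e-06). With MS023 plus GSK-LSD1, RUNX1-202 had 76.1%, 80% and 73.2%, which overlapped DMSO, and RUNX1 usage was not called; whether that response differs from GSK-LSD1 alone was not tested. With PRT220 the other distal form, RUNX1-201, had 2.41%, 1.99% and 1.78%, against 1.54%, 1.01% and 0.821% with DMSO, and rose by 0.98 (adjusted p = 0.00056). RUNX1 usage was called with PRT220 plus GSK-LSD1, GSK-LSD1 and PRT220 (gene-level adjusted p = 1.03e-05, 3.81e-07 and 0.00113), and all 3 calls held in the 9 alternatives run. It was called with MS023 only without DMSO library C (0.0128).

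**Figure D4:**
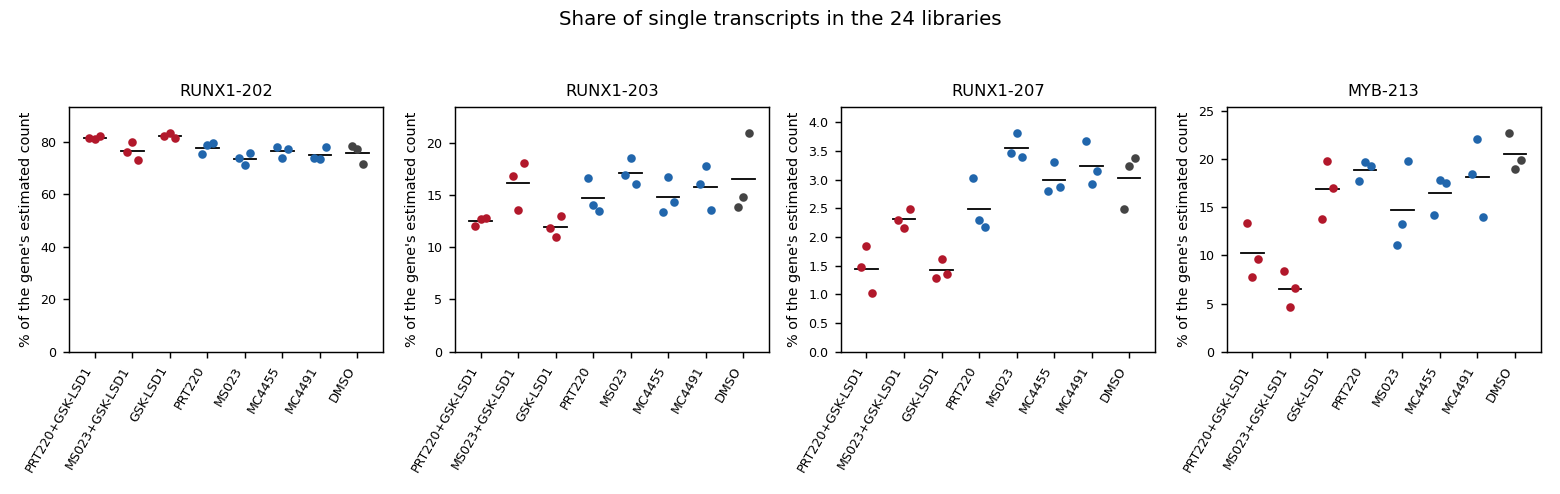
Share of 4 transcripts in the estimated count of their gene (percent, vertical axes from 0) in the 24 libraries, 3 points per group with the mean as a line; red marks groups with GSK-LSD1, blue the other compounds and grey DMSO. RUNX1-207 lies at 1.02% to 1.84% with PRT220 plus GSK-LSD1 and GSK-LSD1 and at 2.48% or above with DMSO. The mean of MYB-213 is lowest in the 2 groups that paired GSK-LSD1 with another drug, and the pair with PRT220 overlaps MS023.

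MYB usage changed with both pairs of drugs. MYB-213 (2866 bases), a coding transcript that starts at position 135181508 of chromosome 6, downstream of the start of the main form MYB-205 at 135181328, made up 13.4%, 7.74% and 9.60% of the MYB estimated count with PRT220 plus GSK-LSD1 and 8.40%, 4.62% and 6.62% with MS023 plus GSK-LSD1, against 22.7%, 19.0% and 19.9% with DMSO. It fell by 1.16 and 1.96 on the log2 scale (limma adjusted p = 8.32e-05 and 1.25e-09). With GSK-LSD1 its share was 13.8%, 19.8% and 17.0% and with MS023 11.1%, 13.3% and 19.8%, and neither was called. Usage was tested over DMSO only, so whether the pairs differ from GSK-LSD1 or MS023 alone was not tested. The gene-level MYB calls of both pairs (adjusted p = 0.0004 and 4.94e-09) held in the 9 alternatives run. The MYB call of GSK-LSD1 (0.0433) was lost in 8 of 9, including without each single library, and that of MC4491 (0.00574) was lost without MC4491 library A (0.297).

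IRF8-201, the main transcript, which starts at position 85898803 of chromosome 16, made up 90.7%, 90.6% and 89.2% of the IRF8 estimated count with MS023 plus GSK-LSD1, against 92.9%, 93.4% and 92.5% with DMSO. The short IRF8-203, which starts at 85902689, had 5.50%, 5.03% and 5.78%, against 3.87%, 3.50% and 3.52%, and both changes passed the test (-0.54 and 0.57 on the log2 scale, limma adjusted p = 0.000159 and 0.0193). The gene-level IRF8 call of that pair (0.000242) held in the 9 alternatives, and that of GSK-LSD1 (0.0323) was lost in 7, including without each single library. IKZF1 usage was called in 6 of 7 comparisons with DMSO, and in each of them IKZF1-203 was called, which had 9.73%, 3.51% and 0% in the 3 DMSO libraries. Without DMSO library A the IKZF1 usage calls were lost for PRT220 plus GSK-LSD1 (adjusted p = 0.136), GSK-LSD1 (0.0508), MS023 (0.252) and MC4455 (0.0562). That of PRT220 plus GSK-LSD1 was also lost without its library A (0.171) or B (0.0774) or DMSO library C (0.987) and with the replicate block (0.0621), that of MS023 plus GSK-LSD1 without its library B (0.107) or C (0.271), and that of MS023 without each single library. SPI1 usage was called nowhere. Usage was called for 19.6% of the 11425 genes tested with PRT220 plus GSK-LSD1, 13.3% with MS023 plus GSK-LSD1, 5.21% with GSK-LSD1, 16.3% with PRT220, 4.3% with MS023, 14.8% with MC4455 and 12.4% with MC4491.

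Listed target genes of the factors changed in both directions. Their counts stand beside the share of all genes called. This was 46.5% with PRT220 plus GSK-LSD1, 48.4% with MS023 plus GSK-LSD1, 32.6% with GSK-LSD1 and 24.9% with PRT220. Of 19 PU.1 targets, PRT220 plus GSK-LSD1 raised 10 and lowered 4, with a median log2 fold change of 0.48 beside 0.04 over all genes, while SPI1 itself was not called. ITGAM, the integrin CD11b, averaged 46.3 ± 6.42 CPM with the pair, 26.4 ± 3.02 with GSK-LSD1 and 7.06 ± 0.44 with PRT220, against 3.03 ± 0.80 CPM with DMSO (SD, n = 3). CYBB, the NADPH oxidase subunit, averaged 42.7 ± 2.73, 18.1 ± 0.83 and 10.3 ± 0.81 CPM, against 3.60 ± 0.22 CPM. MPEG1, a pore-forming protein of macrophages, rose by 1.93, 1.80 and 1.10 on the log2 scale in these groups (edgeR adjusted p = 6.97e-13, 3.14e-12 and 1.67e-08). PRT220 raised 12 and lowered 1 of the 19, and GSK-LSD1 raised 10 and lowered 4. Monocyte markers, several of which are in this list, had higher sums in the groups with GSK-LSD1, as given above, and their part in these counts was not tested.

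Of 14 tested C/EBP targets, the pair raised 5 and lowered 7 (median -0.37), whereas PRT220 raised 6 and lowered 1 (median 0.24). The genes of primary granule proteases were among those that fell: PRTN3, proteinase 3, averaged 19.0 ± 1.17 CPM with the pair, 35.7 ± 6.15 with GSK-LSD1 and 105 ± 21.8 with PRT220, against 104 ± 3.10 CPM with DMSO. It fell by 2.45 and 1.54 on the log2 scale with the pair and GSK-LSD1. CTSG, cathepsin G, fell by 1.68 with GSK-LSD1 and rose by 0.81 with PRT220 (edgeR adjusted p = 9.74e-12 and 7.2e-07). S100A8 and S100A9, calcium-binding proteins of mature myeloid cells, averaged 2.03 and 2.31 CPM with the pair, against 0.49 and 0.21 CPM with DMSO, and rose by 2.04 and 3.54 on the log2 scale (edgeR adjusted p = 1.17e-06 and 1.02e-06). S100A12 was at 0 in all DMSO libraries and averaged 0.70 CPM with the pair and 0.63 CPM with GSK-LSD1.

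Of 16 IRF8 targets, the pair raised 10 and lowered 3 (median 0.50) and GSK-LSD1 raised 8 and lowered 3 (median 0.34), although IRF8 was called with neither. CIITA, the regulator of class II antigen presentation, averaged 146 ± 0.78 CPM with the pair, 116 ± 7.63 with GSK-LSD1 and 60.1 ± 6.64 with PRT220, against 38.4 ± 0.96 CPM with DMSO. HLA-DRA, a class II chain, rose by 2.38, 2.26 and 0.71 on the log2 scale, and CD74, the invariant chain, rose by 1.64 and 1.44 with the pair and GSK-LSD1. PRT220, with which IRF8 rose, raised 7 and lowered 2 of the 16 (median 0.25). With MS023 alone, beside 2.25% of all genes called, 3 of the 16 were raised, HLA-DRA by 0.62, CD74 by 0.49 and CIITA by 0.39 (edgeR adjusted p = 0.00287, 0.00651 and 0.00967), and 1 was lowered, CYBB by 0.55 (0.00407).

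Of 18 MYB targets, the pair lowered 10 and raised 5 (median -0.24), MS023 plus GSK-LSD1 lowered 10 and raised 6 (median -0.23) and GSK-LSD1 lowered 8 and raised 5 (median -0.10). BCL2, the survival factor, averaged 356 ± 15.9 CPM with the pair, 422 ± 12.1 with GSK-LSD1 and 472 ± 4.72 with PRT220, against 559 ± 29.8 CPM with DMSO. ELANE, neutrophil elastase, fell by 1.32 and 1.36 on the log2 scale with the pair and GSK-LSD1 (edgeR adjusted p = 0.00017 and 0.000204). KIT, the receptor of stem cell factor, rose: it averaged 16.8 ± 1.79 CPM with the pair, 8.42 ± 0.50 with GSK-LSD1 and 29.2 ± 1.93 with PRT220, against 6.67 ± 0.86 CPM with DMSO. Its interaction term was -1.13 ± 0.14 (adjusted p = 0.000672), so that the response of KIT to GSK-LSD1 did differ with PRT220.

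Of 15 RUNX1 targets, PRT220, which lowered RUNX1, raised 3 (median 0.14), which were CD244, NFKBIA and ITGAL, by 0.32, 0.28 and 0.14 on the log2 scale, and the pair raised 5 and lowered 6 (median -0.12). Of 12 tested Ikaros targets, the pair raised 2 and lowered 6 (median -0.22), whereas PRT220 raised 5 and lowered 1 (median 0.08). IGLL1, a surrogate light chain gene, averaged 0.74 ± 0.19 CPM with the pair, 0.72 ± 0.12 with GSK-LSD1 and 10.2 ± 0.43 with PRT220, against 5.69 ± 0.45 CPM with DMSO. IL7R, the interleukin 7 receptor chain, fell by 2.14 with the pair and 1.81 with GSK-LSD1 (edgeR adjusted p = 3.45e-12 and 4.95e-11). Target lists share genes, such as CYBB, KIT and ELANE, and were drawn from general knowledge rather than from binding data in these cells.

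**Figure D5:**
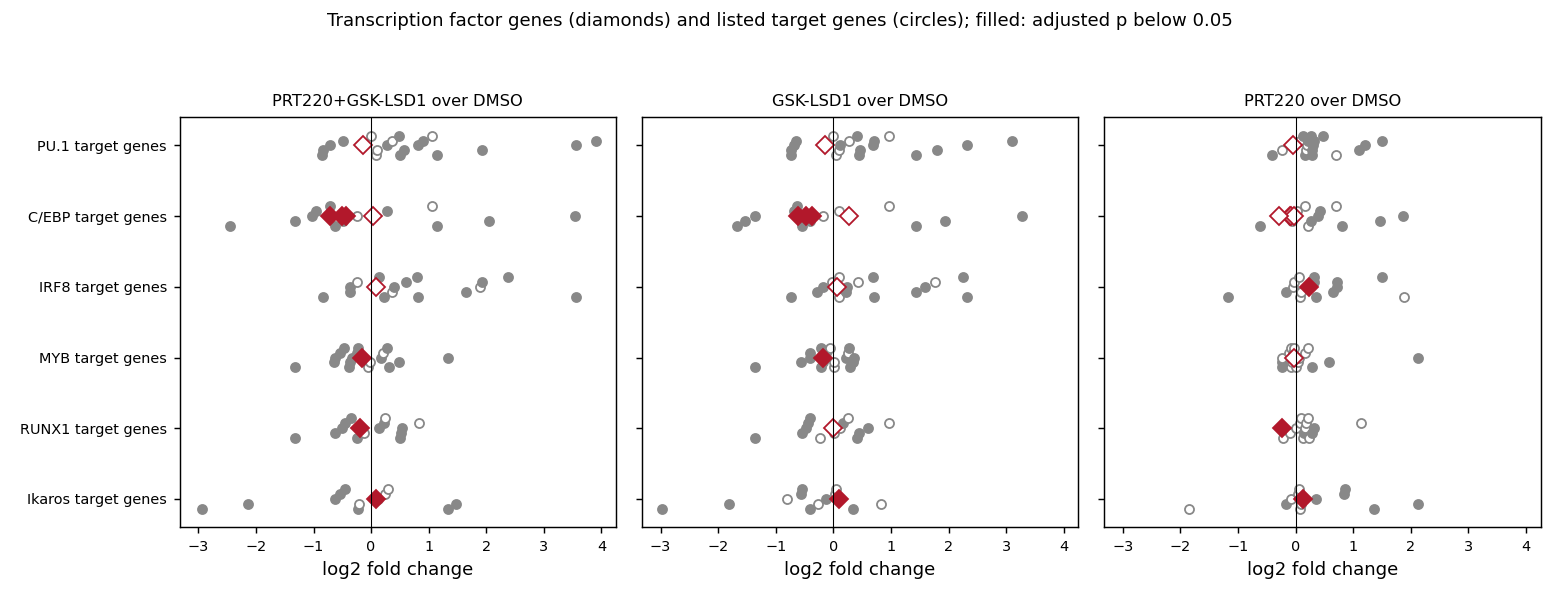
Log2 fold change over DMSO (horizontal axis) of the transcription factor genes (red diamonds) and their listed targets (grey circles) with PRT220 plus GSK-LSD1, GSK-LSD1 and PRT220; filled symbols had an edgeR adjusted p below 0.05, and S100A12, at 0 with DMSO, is left out. The diamonds lie between -0.72 and 0.27, while targets reach 3.91 (ITGAM) with the pair.

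Of 27 relatives of the 9 genes, the pair raised 10 and lowered 5 (median 0.13), and these counts do not set the relatives apart from all genes, of which 24.4% were called higher and 22.1% lower. DDIT3, the C/EBP homologue CHOP of the stress response, averaged 7.06 ± 0.28 CPM with the pair, 10.1 ± 1.07 with GSK-LSD1 and 7.82 ± 0.93 with PRT220, against 16.2 ± 3.89 CPM with DMSO (edgeR adjusted p = 3.9e-06, 0.00224 and 5.87e-05). RUNX3 rose by 0.59 with GSK-LSD1 (edgeR adjusted p = 6e-08), and IRF5, which drives inflammatory genes in macrophages, rose by 0.58 with PRT220 (4.21e-09). Of the 34 other blood factors tested, the pair raised 15 and lowered 12 (median 0.06). ZNF366, a repressor known from dendritic cells, averaged 15.3 ± 0.91 CPM with the pair, 4.73 ± 0.84 with GSK-LSD1 and 1.68 ± 0.20 with PRT220, against 0.31 ± 0.08 CPM with DMSO. BCL6 averaged 14.5 ± 0.72, 10.5 ± 0.30 and 2.50 ± 0.18 CPM, against 1.202 ± 0.10 CPM, and GATA2, a stem and progenitor factor, averaged 12.5 ± 1.72, 24.1 ± 2.67 and 22.3 ± 4.64 CPM, against 55.2 ± 2.54 CPM.

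Of 19 tested partners and regulators of the 9 factors, the pair raised 5 and lowered 6 (median -0.02), beside 24.4% of all genes higher and 22.1% lower. TRIB2, a pseudokinase that promotes degradation of C/EBPα protein, averaged 2.50 ± 0.16 CPM with the pair, 3.43 ± 0.38 with GSK-LSD1 and 0.94 ± 0.29 with PRT220, against 1.24 ± 0.21 CPM with DMSO, and rose by 1.00 and 1.46 on the log2 scale with the pair and GSK-LSD1 (edgeR adjusted p = 0.00157 and 5.57e-05). TRIB1, which has the same role, fell by 0.29 and 0.36 (0.0241 and 0.00834). CREBBP, a histone acetyltransferase that serves MYB, rose by 0.49 and 0.48 (1.7e-07 and 4.23e-07). These are RNA levels, and protein was not measured.

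The genes whose group means ran most nearly parallel to each factor were found by the root mean square difference between centred log2 CPM over the 8 groups, among genes of at least 5 CPM. For CEBPA these were PLD6, ERN1 and CCNYL1, at 0.05 each, where CEBPA itself varied by 0.28 on that scale. For CEBPD, which varied by 0.21, they included TMEM164 at 0.03 and CDIN1 at 0.04. For CEBPB, which varied by 0.27, they included SPON2 and GSAP, at 0.09 each. For MYB, which varied by 0.08, GALNT1, PPM1A and NIN were each at 0.02, for RUNX1 (0.08) TARBP1 was at 0.02 and GGPS1 and GMEB1 were each at 0.03, and for IRF8 (0.09) HENMT1, LMAN2 and ECHDC1 were each at 0.03. SPI1 (0.06) ran closest to EXOSC3, AKT2 and PPP1R35, IKZF1 (0.05) to SLC35C2, OTUB1 and WWP2, each at 0.02, and CEBPE (0.15) to APOL4, ZNF558 and LFNG, at 0.05, 0.05 and 0.06. None of the 9 genes was among the closest genes of another.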

How the data were processed

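Poly(A)-selected RNA of MV4-11 cells was sequenced as unstranded libraries, per the labels' protocols, and 24 libraries in 8 groups of 3 were used. The deposited gene and transcript tables hold estimated counts (expected counts) per feature, not scaled between libraries, a unit read from the values, of which 34.1% are not whole. The submitters' processing notes name, with no role or order, the GRCh38 build, DESeq2 1.28.1, R 4.0.0, Salmon 1.2.1 and STAR 2.7.3a, and the annotation is not given in the sources used here. Symbols, coordinates and transcript names came from GENCODE release 29, which matched 96.6% to 96.8% of the transcript reads.

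Counts were rounded and tested with edgeR 4.0.16 (R 4.3.3; TMM scaling, quasi-likelihood test, 8 groups in 1 fit, Benjamini-Hochberg adjustment over 16640 genes, threshold 0.05) in 15 comparisons. CPM values are TMM-scaled. Intervals are 95% with 19.96 degrees of freedom. TPM was computed from annotated transcript lengths. Transcript usage was tested with limma 3.58.1 over 74228 transcripts of 11425 genes. These transcripts passed a filter on low counts, in genes with more than 1 such transcript. Shares were kept for transcripts that reached a mean of 2% of their gene in at least 1 group, which did not limit the test. Both tests were checked on simulated data. DESeq2 1.42.0, RLE scaling, no filter, a replicate block, a fit of the compared groups alone, a term for low RRP9 (below 5 CPM), low-RRP9 libraries apart, and leaving out each library were tried as alternatives.

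The 9 genes and all lists were chosen with earlier results of these data known. Named genes were the 9, KDM1A, PRMT5 and GFI1, up to 4 called genes of a list with the largest changes in a comparison, and the 3 most alike genes per member, of which some are not reported here. No 2 libraries of a group were identical. Depth of 32495446 to 61090593 counts per library limits precision for CEBPE. Same-letter libraries of PRT220 plus GSK-LSD1 and DMSO all correlated above 0.1 in their deviations from group means (0.132 to 0.328). No other 2 groups met this. In PRT220 plus GSK-LSD1 and in DMSO only library C had low RRP9, so pairing by letter and the RRP9 split cannot be told apart there. Letters were not paired in the main fit of any comparison, and the replicate block was run as an alternative.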

Additional observations from a re-analysis of the deposited data

Results flagged for a closer look

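No interaction term of the 9 genes passed the test. Of the target, relative and partner lists, 9 genes responded differently to GSK-LSD1 with and without PRT220 (edgeR interaction test). Over all 16640 tested genes, 90 did (0.541%), and the lists were chosen with earlier results of these data known. KIT had a term of -1.13 ± 0.14 (SE; adjusted p = 0.000672), with a log2 fold change on GSK-LSD1 of -0.80 over PRT220 and 0.33 over DMSO. MPEG1 had a term of -0.97 ± 0.12 (0.000672), with 0.83 over PRT220 and 1.80 over DMSO. LYZ, the lysozyme gene, had -0.55 ± 0.09 (0.00309), with 0.88 over PRT220 and 1.43 over DMSO. IRF5 had -0.36 ± 0.06 (0.00491), with -0.39 over PRT220 and -0.04 over DMSO. ETS2 had -0.33 ± 0.06 (0.00609), with 0.18 over PRT220 and 0.52 over DMSO. IL7R had -0.69 ± 0.15 (0.0477), with -2.50 over PRT220 and -1.81 over DMSO. CST3 had -0.43 ± 0.09 (0.0426), ADA -0.37 ± 0.08 (0.034) and CBX5 -0.27 ± 0.06 (0.0373). All 3 PRT220 libraries had low RRP9, against 1 of 3 DMSO libraries and no GSK-LSD1 library, and the part of this in the 9 terms was not tested.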

How the results depend on the processing

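Of 135 log2 fold changes of the 9 genes, 34 were called, and 16 of these were called in the same direction in every alternative run. Over 1899 recomputed values, 61 lost the call, 21 gained it and none of the called values changed sign; 150 uncalled values changed sign and stayed uncalled. By setting, the number of the 9 genes called moved by over 1.5 times as follows. Without low-RRP9 libraries, GSK-LSD1 called 3, MS023 plus GSK-LSD1 over MS023 called 2 and PRT220 plus GSK-LSD1 over MS023 plus GSK-LSD1 called 1. In low-RRP9 libraries alone, PRT220 plus GSK-LSD1 called 3 over DMSO, 3 over PRT220 and 0 over MS023 plus GSK-LSD1. With the term for low RRP9, PRT220 plus GSK-LSD1 called 3 over PRT220. With the compared groups alone, MC4455 called 1, MC4491 called 0 and PRT220 plus GSK-LSD1 over MS023 plus GSK-LSD1 called 1. DESeq2 called 1 with MS023 over DMSO and 1 with MS023 plus GSK-LSD1 over GSK-LSD1. The replicate block called 1 with MC4491 and left 9 of 15 transcript usage calls. Fits on parts of the libraries hold fewer samples, whereas the term for low RRP9, the replicate block and DESeq2 used all 24 libraries. The cause of these shifts was not tested.

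Leaving out single libraries gave 2 to 3 genes for PRT220, 3 to 6 for GSK-LSD1, 5 to 7 for PRT220 plus GSK-LSD1, 4 to 5 for MS023 plus GSK-LSD1, 1 to 2 for MC4455 and 0 to 2 for MC4491 over DMSO. It gave 4 to 5 for PRT220 plus GSK-LSD1 over PRT220, 3 to 5 for MS023 plus GSK-LSD1 over MS023, 1 to 3 between the pairs, and 9 to 16 usage calls, an alternative chosen after seeing the data. Same-letter libraries correlated above 0.1 in 13 of 84 pairs (-0.417 to 0.328), and 12 of 24 libraries correlated best with their own letter, and all 3 letters did so only between PRT220 plus GSK-LSD1 and DMSO, where the replicate block ended the IKZF1 usage call (adjusted p = 0.0621) and no other call. The main fit paired letters in no comparison. In other comparisons with DMSO the block gave IKZF1 usage 0.186 with PRT220, 0.273 with MS023 and 0.0568 with MS023 plus GSK-LSD1, all lost. CEBPE, with 57 to 115 counts per DMSO library, is limited by depth. Estimated counts of single transcripts can vary widely between libraries of a group. Those of IKZF1-203 ran from 0 to 2007 with DMSO, and the cause was not tested.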
